A study of Homo sapiens with 6 samples.

Results

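The genes described here lie in band 17q25, at the far end of the long arm of human chromosome 17. The list holds 58 genes, from COG1 on the side of the centromere to FOXK2 near the chromosome end. Its members were chosen by position and from the measured contrast between the groups, in which many of them were slightly higher in treated cells. Their differences between the groups are therefore given as descriptions. Where a limma call of a member is counted below, it comes from the fit over all genes and supports nothing about the members. Of the 58, 57 were measured among 18417 genes. TMEM104 was found under its current symbol SLC38A12, and SUMO2 had no probe set with a single gene symbol and was not analysed here.

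The cells were WM164, an established human melanoma line carrying a mutated BRAF kinase. One group of 3 samples was the parent line, labelled control and untreated and, per the series title, exposed to DMSO, the drug's solvent. The other 3 samples, labelled IDTC colony and described as resistant, had been in 500 nM PLX4032 for 60 days. PLX4032, or vemurafenib, inhibits the mutant BRAF kinase that drives ERK signalling in such cells. Every sample came from this one cell line. Whether the colonies still had the genotype of the parent line was not measured. Each sample's RNA went onto a separate Affymetrix array with probes along whole transcripts, and values are log2 expression per probe set as deposited. Nothing in the labels says that the 3 samples of a group were separate cultures or separate colonies, so a p-value here reflects how much these 3 and 3 samples varied, and that variation may be technical.

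A chromosome band holds genes that share a place and not a task. Neighbouring genes can share DNA copy number, chromatin state and, where they stand head to head, a promoter region, while each keeps its own regulators. The members from 17q25 range from splicing factors and mitochondrial ribosome proteins to Golgi tethers, ubiquitin enzymes and the adaptor GRB2, which links receptor tyrosine kinases to RAS. Copy number was not measured here, and its part in any difference was not tested.

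Over genes, correlations were 0.997 to 0.998 within a group and 0.967 to 0.969 between groups. Array medians over genes lay between 6.98 and 7.02. Of 7 measured melanocyte lineage markers 6 were above the lowest array median in both groups, including MITF, SOX10, PMEL and MLANA, while TYRP1 was not. None of 4 endothelial markers was above it. The same held for all but 1 of 4 keratinocyte markers (KRT14), all but 2 of 5 fibroblast markers (COL1A1 and LUM) and all but 1 of 4 leukocyte markers (CD68, which has a lysosomal product). Their part in the values below was not tested.

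Most members were higher in the colonies, by amounts that differed widely from gene to gene. The difference, colony mean minus parent mean on the log2 scale, was above 0 for 45 members and below 0 for 12. It ran from -1.39 for SPHK1 to 1.13 for CYTH1, with a median of 0.31 and quartiles of 0.09 and 0.67. The median over all 18417 genes was 0.00. In bulk RNA, fewer cells expressing a gene and less RNA per cell cannot be told apart. The differences were not uniform: 14 members lay between 0 and 0.25, 11 between 0.25 and 0.5, 11 between 0.5 and 0.75, and 9 above 0.75. Of the 12 below 0, 9 lay within 0.5 of it. The 3 others were TTYH2, TRIM47 and SPHK1.

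All 3 colony arrays were alike in this respect. The median over members of the array value minus the parent mean was 0.28, 0.31 and 0.32 on the colony arrays and -0.01, -0.02 and 0.03 on the parent arrays. In the 3 colony arrays 46, 45 and 46 of the 57 members lay above their parent mean. For 41 members the colony values all lay above the parent values, for 9 they all lay below, and for 7 the groups overlapped. Over all genes 24.4% had the colony arrays wholly above and 26.4% wholly below. By limma with Benjamini-Hochberg adjustment over all genes (adjusted p under 0.05), 38 members were called higher and 8 lower. The background was 20.9% of all genes called higher and 22.9% called lower, or 31.2% and 36.8% of genes above the median expression, where 52 of the 57 members lay. Since the contrast chose the members, nothing is read from these counts. Most were small: 21 of the 38 differed by less than 1.5-fold.

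Some of the calls sat close to the threshold. With 1 array left out, 35 to 37 members were called higher and 6 to 8 lower. ARHGDIA, GRB2, HGS, NUP85, SRSF2 and SYNGR2 each lost the call without at least 1 array. ARMC7 lost it only with the replicate number as a term.

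**Figure D1:**
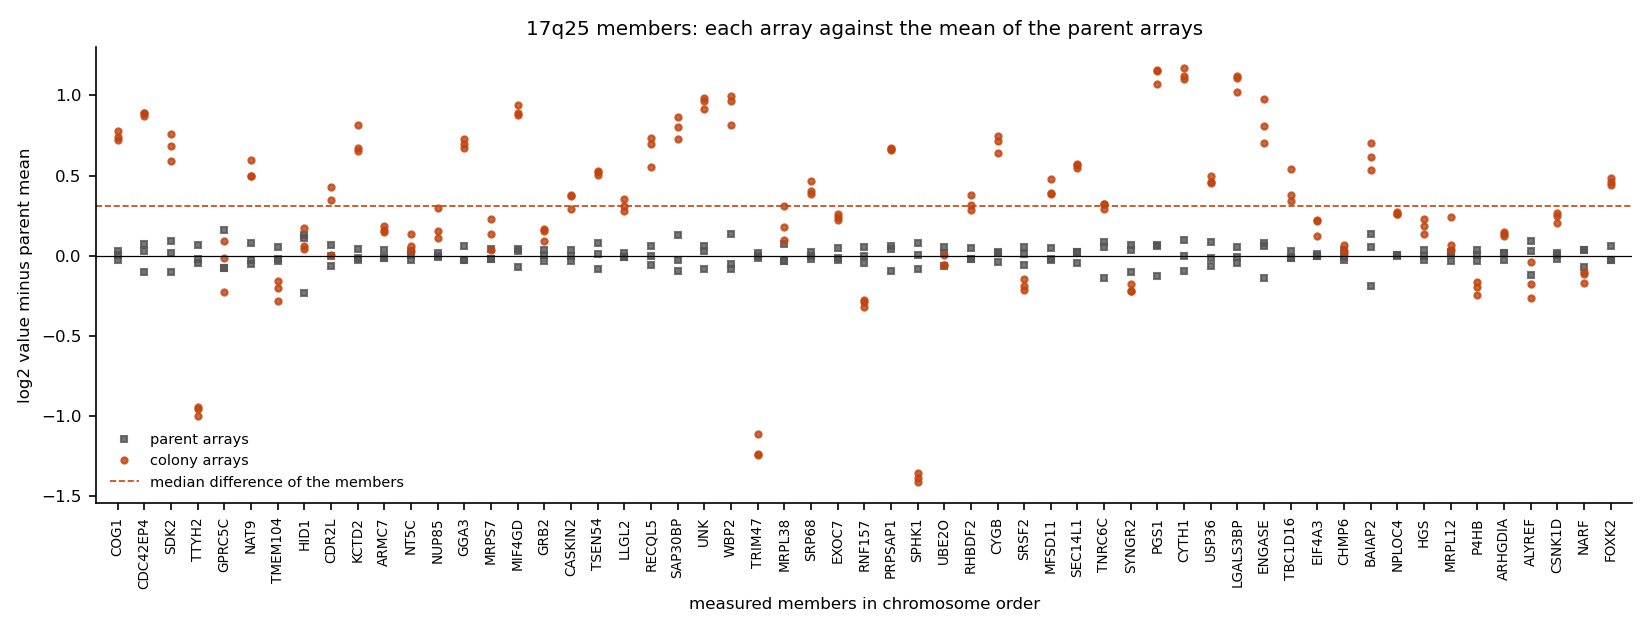
Each measured member in chromosome order on the horizontal axis, with the log2 value of each array minus the mean of the 3 parent arrays on the vertical axis (grey squares: parent arrays; orange circles: colony arrays). The dashed line is the members' median difference of 0.31. Colony points mostly lie above 0 but spread from SPHK1 (-1.39) to CYTH1 (1.13).

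The highest members came from membrane traffic, lipid synthesis and the secreted proteins. CYTH1 encodes cytohesin 1, an exchange factor for ARF GTPases, and its probe set 8018922 read 8.07, 7.88 and 7.97 on the parent arrays and 9.08, 9.10 and 9.15 on the colony arrays. Every colony array stood more than the whole parent spread above the parent arrays, a difference of 1.13 ± 0.06 (SE, n = 3 per group) or 2.20-fold. PGS1, which makes phosphatidylglycerol phosphate on the way to the mitochondrial lipid cardiolipin, read 7.49, 7.31 and 7.50 in parents and 8.51, 8.59 and 8.59 in colonies, a difference of 1.13 ± 0.06. LGALS3BP encodes a secreted glycoprotein that binds galectins. Its values were 11.19, 11.23 and 11.30 in parents and 12.35, 12.27 and 12.36 in colonies (1.09 ± 0.05, 2.12-fold). These 3 were the members with at least a 2-fold higher value in colonies, and in none did the groups overlap.

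The next 3 in rank stayed just under 2-fold. UNK, an RNA-binding zinc finger protein, read 8.85, 8.70 and 8.81 in parents and 9.77, 9.70 and 9.75 in colonies (0.95 ± 0.05). WBP2, a coactivator that binds WW domains such as that of YAP, went from 10.51, 10.29 and 10.33 to 11.34, 11.37 and 11.19 (0.93 ± 0.08). MIF4GD, which binds the histone mRNA factor SLBP and takes part in translation, went from 7.69, 7.67 and 7.57 to 8.58, 8.52 and 8.54 (0.90 ± 0.05). For all 3 the lowest colony array lay above the highest parent array.

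The lowest members stood apart from this pattern. SPHK1 encodes sphingosine kinase 1, which makes the lipid messenger sphingosine 1-phosphate. It read 9.81, 9.89 and 9.97 in parents and 8.50, 8.48 and 8.53 in colonies, a difference of -1.39 ± 0.05, so parents were 2.62-fold above colonies. TRIM47, a RING-type ubiquitin ligase, read 9.06, 9.02 and 9.04 in parents against 7.92, 7.79 and 7.80 (-1.20 ± 0.05). TTYH2, a membrane protein of the tweety family, read 10.21, 10.23 and 10.32 against 9.30, 9.25 and 9.31 (-0.97 ± 0.05). In these 3 genes every colony array lay below every parent array. Their listed neighbours did not share such low values. WBP2 (0.93) precedes TRIM47 and MRPL38 (0.19) follows it, PRPSAP1 (0.67) precedes SPHK1 and UBE2O (-0.04) follows it, and SDK2 (0.68) precedes TTYH2 and GPRC5C (-0.05) follows it. Both group means of SDK2 and of GPRC5C lay below the lowest array median, so these neighbours of TTYH2 could show little of a fall.

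The other 3 of the 6 lowest moved far less. RNF157, a ubiquitin ligase gene expressed in neural tissue, read 11.24, 11.14 and 11.18 in parents and 10.90, 10.89 and 10.86 in colonies (-0.30 ± 0.05). TMEM104, a predicted multi-pass membrane protein gene, went from 9.03, 9.04 and 9.12 to 8.91, 8.78 and 8.86 (-0.21 ± 0.05). SYNGR2, a synaptogyrin of cytoplasmic vesicles, went from 8.56, 8.69 and 8.73 to 8.44, 8.44 and 8.48 (-0.21 ± 0.06). The groups did not overlap in any of these 3, but the call of SYNGR2 was lost without parent replicate 2, parent replicate 3, colony replicate 1 or colony replicate 2, where its difference lay between -0.20 and -0.17.

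**Figure D2:**
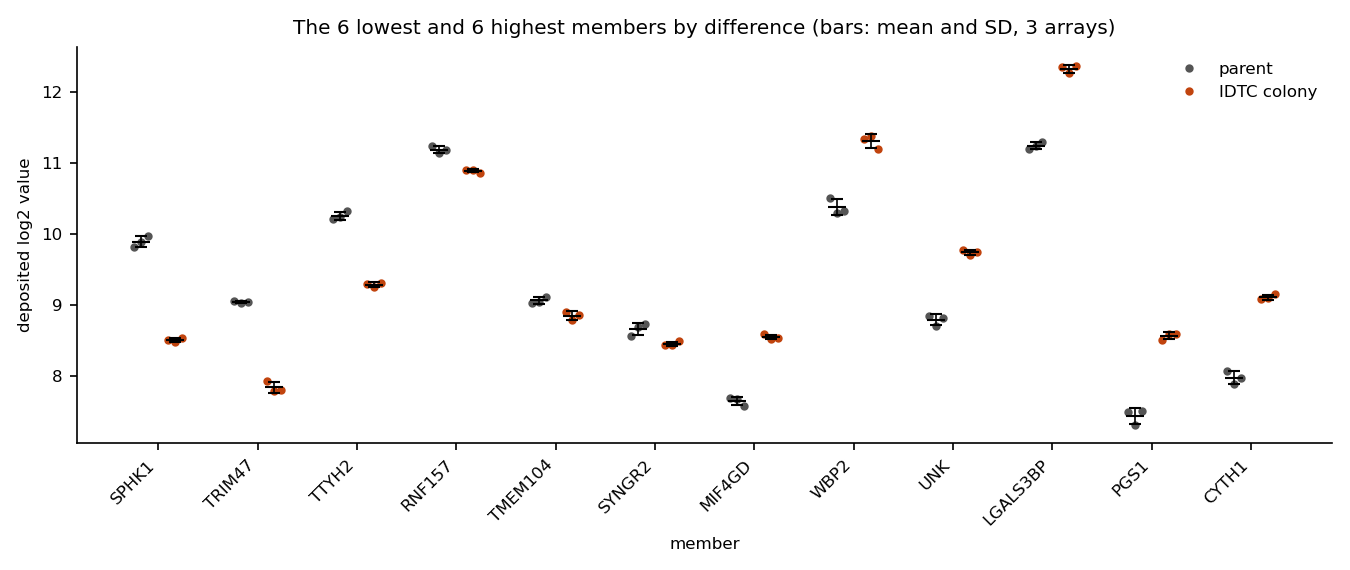
Deposited log2 values of the 6 lowest and 6 highest members by difference, with 3 parent arrays (grey) and 3 colony arrays (orange) as points and the mean and SD as bars. SPHK1 shows the widest gap downwards (-1.39) and CYTH1 the widest upwards (1.13), and no pair of groups overlaps.

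Promoter windows of the 3 highest and 3 lowest members are shown because these genes lie within one band and yet differ most in direction. RefSeq gave windows on GRCh38.p14, from 250 bases before to 50 after the transcript start, for 45 of the 57 measured members. The first window the table lists for each gene is printed 5′ to 3′ on the gene's strand. Capitals mark matches, on either strand, to 8 searched motifs. The TATA box was searched as TATAAA, the GC box as GGGCGG, the CCAAT box by those letters and the E-box as CACGTG. The cAMP response element (CRE) was searched as TGACGTCA, the AP-1 site as TGACTCA, the ETS site as CCGGAAG and part of the NRF1 site as GCGCATGC. A match can overlap another, as in runs of GC boxes.
CYTH1, chr17:78782224-78782523, minus strand: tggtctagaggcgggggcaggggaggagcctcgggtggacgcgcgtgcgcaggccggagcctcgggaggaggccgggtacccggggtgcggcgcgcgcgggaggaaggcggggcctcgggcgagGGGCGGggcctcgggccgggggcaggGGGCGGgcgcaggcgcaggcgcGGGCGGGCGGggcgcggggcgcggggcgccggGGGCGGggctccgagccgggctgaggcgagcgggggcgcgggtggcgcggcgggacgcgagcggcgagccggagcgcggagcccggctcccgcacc
PGS1, chr17:78378399-78378698, plus strand: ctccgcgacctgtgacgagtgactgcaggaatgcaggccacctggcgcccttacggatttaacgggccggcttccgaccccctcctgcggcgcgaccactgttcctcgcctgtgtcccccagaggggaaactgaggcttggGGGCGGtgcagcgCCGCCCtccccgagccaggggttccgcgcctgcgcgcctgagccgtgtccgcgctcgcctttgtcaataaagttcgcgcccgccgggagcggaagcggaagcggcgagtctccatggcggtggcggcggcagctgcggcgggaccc
LGALS3BP, chr17:78979874-78980173, minus strand: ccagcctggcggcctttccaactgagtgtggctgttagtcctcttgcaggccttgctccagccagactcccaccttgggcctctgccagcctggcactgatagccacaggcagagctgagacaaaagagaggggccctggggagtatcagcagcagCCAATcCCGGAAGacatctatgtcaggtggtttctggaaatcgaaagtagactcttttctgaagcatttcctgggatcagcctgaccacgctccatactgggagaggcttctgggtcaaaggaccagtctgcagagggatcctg
SPHK1, chr17:76382954-76383253, plus strand: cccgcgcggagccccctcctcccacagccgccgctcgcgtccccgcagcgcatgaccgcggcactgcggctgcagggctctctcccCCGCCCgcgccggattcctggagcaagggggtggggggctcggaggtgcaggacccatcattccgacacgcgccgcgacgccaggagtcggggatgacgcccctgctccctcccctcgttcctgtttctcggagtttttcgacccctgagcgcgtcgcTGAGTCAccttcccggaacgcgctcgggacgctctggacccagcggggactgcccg
TRIM47, chr17:75878532-75878831, minus strand: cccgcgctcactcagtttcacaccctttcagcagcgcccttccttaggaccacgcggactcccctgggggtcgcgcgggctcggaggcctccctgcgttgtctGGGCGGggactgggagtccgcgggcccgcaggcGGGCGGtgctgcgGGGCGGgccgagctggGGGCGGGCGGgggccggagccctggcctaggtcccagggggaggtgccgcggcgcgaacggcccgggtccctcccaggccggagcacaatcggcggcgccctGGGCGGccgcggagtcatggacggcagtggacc
TTYH2, chr17:74213321-74213620, plus strand: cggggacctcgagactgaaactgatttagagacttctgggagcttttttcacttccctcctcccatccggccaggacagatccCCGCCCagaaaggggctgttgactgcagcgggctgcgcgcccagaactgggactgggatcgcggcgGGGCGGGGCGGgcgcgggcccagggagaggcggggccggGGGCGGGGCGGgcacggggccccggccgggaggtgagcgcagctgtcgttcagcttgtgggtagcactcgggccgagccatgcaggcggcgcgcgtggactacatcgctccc

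Both ends of the ranking held GC-rich windows. GC content was 86% for CYTH1, 71% for PGS1, 72.7% for SPHK1, 77% for TRIM47 and 70.7% for TTYH2, while LGALS3BP stood lower at 56.7% with only 4 CpG pairs. Among the highest members GC boxes matched 5 times in CYTH1, 2 times in PGS1 and not at all in LGALS3BP. Among the lowest they matched 6 times in TRIM47, 5 times in TTYH2 and 1 time in SPHK1. Genes with opposite differences thus shared them. LGALS3BP held 1 CCAAT box and 1 ETS match side by side. SPHK1 held 1 AP-1 match.

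Over the 75 windows of the 45 members, 77.3% held a GC box, against 45% of all 35116 promoter windows and 68.3% of windows of measured genes above the median expression. Median GC content was 68.7%, 58.7% and 65.3% in these 3 sets. ETS matches stood in 21.3% of members' windows, 10.3% of all and 17.5% of those of expressed genes. CCAAT boxes stood in 32%, 34.6% and 35.1%, E-boxes in 12%, 7.26% and 9.93%, and TATA boxes in 6.67%, 11.5% and 6.03%. The NRF1 letters stood in 6.67%, 3.05% and 4.89%. AP-1 matches stood in 10.7%, 4.95% and 3.2%, and belonged to 7 genes. Of these SPHK1 alone lay below 0 (-1.39), and the others ran from 0.26 (NPLOC4) to 0.80 (SAP30BP). The CRE letters were in 0 of the 75 windows, in 1.85% of all and in 2.97% of those of expressed genes. With shares this low, 75 windows are too few to read anything from the 0. These are letter matches, and several windows of one gene or of a gene pair overlap.

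Adjacent members placed head to head show how far close neighbours could part. Among the 45 members with a promoter window, 3 pairs had starts within 1000 bases on opposite strands, pointing away from each other. Members without a window, and pairs whose transcripts overlap at their starts, were not covered by this search. NAT9 and TMEM104 started 154 bases apart, RECQL5 and SAP30BP 184, and GGA3 and MRPS7 273. The window of the gene on the plus strand is printed for each, of which 253, 283 and 228 bases also belong to the partner's window, with capitals as above.
TMEM104, chr17:74776249-74776548, plus strand: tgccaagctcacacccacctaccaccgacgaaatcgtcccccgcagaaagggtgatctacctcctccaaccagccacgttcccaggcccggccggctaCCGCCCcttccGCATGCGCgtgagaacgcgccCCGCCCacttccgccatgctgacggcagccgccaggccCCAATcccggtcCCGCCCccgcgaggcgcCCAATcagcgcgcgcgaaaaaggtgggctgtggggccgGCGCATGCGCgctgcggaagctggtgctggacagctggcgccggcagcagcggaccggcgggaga
SAP30BP, chr17:75667088-75667387, plus strand: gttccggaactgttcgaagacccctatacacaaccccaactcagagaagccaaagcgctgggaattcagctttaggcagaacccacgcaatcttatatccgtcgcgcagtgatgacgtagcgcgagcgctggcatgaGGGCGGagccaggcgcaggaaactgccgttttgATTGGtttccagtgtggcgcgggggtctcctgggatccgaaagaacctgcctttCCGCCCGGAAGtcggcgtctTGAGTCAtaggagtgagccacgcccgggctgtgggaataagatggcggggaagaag
MRPS7, chr17:75261629-75261928, plus strand: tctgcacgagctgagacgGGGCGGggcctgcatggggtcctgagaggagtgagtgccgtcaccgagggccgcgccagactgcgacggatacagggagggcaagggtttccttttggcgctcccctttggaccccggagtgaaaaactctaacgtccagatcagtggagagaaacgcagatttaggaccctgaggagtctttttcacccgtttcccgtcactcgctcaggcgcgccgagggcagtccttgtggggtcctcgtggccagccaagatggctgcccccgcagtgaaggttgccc

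The pairs did not behave alike. RECQL5, a RecQ-family DNA helicase, read 6.74, 6.86 and 6.79 in parents and 7.53, 7.49 and 7.35 in colonies (0.66 ± 0.06). SAP30BP, a protein that binds the SAP30 subunit of histone deacetylase complexes, read 8.04, 7.81 and 7.88 against 8.64, 8.71 and 8.78 (0.80 ± 0.07), so both genes of this pair were higher. GGA3, an adaptor that sorts cargo at the Golgi, was higher by 0.70 ± 0.05. Its partner MRPS7, of the small mitochondrial ribosome subunit, read 8.57, 8.57 and 8.64 against 8.63, 8.73 and 8.82 (0.13 ± 0.06), with the groups overlapping. NAT9, an acetyltransferase family gene, was higher by 0.53 ± 0.06 while TMEM104 was lower by the 0.21 given above.

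By role, members in Golgi, endosome and secretory traffic had 10 of 11 differences above 0, with a median of 0.33 beside 0.31 over all members. COG1, a subunit of the tethering complex of the Golgi, read 9.28, 9.23 and 9.26 in parents and 9.99, 10.03 and 9.98 in colonies (0.74 ± 0.04), and the groups lay far apart. CYTH1 and GGA3 are given above. SEC14L1 was higher by 0.56 ± 0.04, the exocyst subunit gene EXOC7 by 0.24 ± 0.04 and RHBDF2, which steers the protease ADAM17, by 0.33 ± 0.05. TBC1D16, a GTPase-activating protein for RAB proteins, read 9.68, 9.68 and 9.72 against 10.07, 10.03 and 10.23 (0.42 ± 0.06). HGS, which gathers ubiquitinated receptors on endosomes, read 9.26, 9.24 and 9.30 against 9.50, 9.40 and 9.46 (0.18 ± 0.05). Without colony replicate 1 its difference was 0.16 and the call was lost. The ESCRT-III subunit gene CHMP6 (0.03 ± 0.04) and HID1 (0.09 ± 0.10) had overlapping groups.

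Signalling, polarity and cytoskeleton genes had 7 of 8 differences above 0, with SPHK1 below it and a median of 0.28. CDC42EP4, an effector of the GTPase CDC42, was higher by 0.88 ± 0.06 and BAIAP2, an adaptor of actin protrusions, by 0.62 ± 0.09. GRB2 read 9.55, 9.58 and 9.51 in parents and 9.71, 9.64 and 9.70 in colonies (0.14 ± 0.05). The groups do not overlap. Its call ended without any single array other than colony replicate 2, with differences from 0.12 to 0.16. ARHGDIA read 10.63, 10.58 and 10.63 against 10.75, 10.73 and 10.76 (0.14 ± 0.04). Its call ended without parent replicate 2 or without any single colony array, with differences from 0.12 to 0.14. CASKIN2 (0.35 ± 0.05), the kinase gene CSNK1D (0.24 ± 0.04) and the polarity gene LLGL2 (0.31 ± 0.04) were also higher.

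LLGL2 was the median member, and its values show what the typical difference looked like. It read 6.47, 6.45 and 6.45 in parents and 6.74, 6.76 and 6.81 in colonies. All of these lie below the lowest array median of 6.98, as do both group means of SDK2, GPRC5C and HID1. Whether these 4 genes were above background was not tested. SDK2, a cell adhesion protein gene, read 5.59, 5.71 and 5.78 against 6.45, 6.38 and 6.28 (0.68 ± 0.07). GPRC5C, an orphan receptor, read 5.37, 5.37 and 5.61 against 5.55, 5.22 and 5.44, with no separation of the groups. HID1, a gene of dense core vesicle formation, read 6.02, 6.38 and 6.36 against 6.30, 6.43 and 6.31, again with overlap.

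Of 6 RNA processing and export genes 4 had differences above 0 and 2 below, with a median of 0.19. SRSF2, a splicing factor of the SR family, read 10.31, 10.35 and 10.24 in parents and 10.08, 10.15 and 10.11 in colonies (-0.18 ± 0.05). Its difference was -0.16 without parent replicate 2 and -0.17 without colony replicate 1, where the call ended, and -0.09 after quantile normalization. MFSD11, its listed neighbour and a transporter-like membrane protein gene, read 8.50, 8.42 and 8.43 against 8.84, 8.83 and 8.93 (0.42 ± 0.05). EIF4A3, the helicase at the core of the exon junction complex, read 11.35, 11.35 and 11.36 against 11.48, 11.57 and 11.57 (0.19 ± 0.05). ALYREF, an mRNA export adaptor, read 11.89, 12.04 and 12.11 against 11.74, 11.84 and 11.97, so its groups overlapped (-0.16 ± 0.08). TSEN54, a subunit of the tRNA splicing endonuclease, was higher by 0.52 ± 0.05 and the nuclear pore gene NUP85 by 0.19 ± 0.06, a call that ended without any single array other than colony replicate 1.

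All 7 genes of translation and mRNA decay had differences above 0 (median 0.31). Beside UNK and MIF4GD these included SRP68, of the signal recognition particle (0.42 ± 0.04), and TNRC6C, which recruits deadenylases to microRNA targets (0.31 ± 0.07). The mitochondrial ribosome genes MRPS7 (0.13), MRPL38 (0.19) and MRPL12 (0.12) had smaller differences. For MRPL38 and MRPL12 the colony arrays lay wholly above the parent arrays, by narrow gaps.

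Ubiquitin, SUMO and protein folding genes were divided, with 4 of 8 differences above 0 and 4 below, and a median of 0.11. ENGASE, which cuts N-glycans in the cytosol, was higher by 0.83 ± 0.09, KCTD2, a cullin adaptor family gene, by 0.71 ± 0.06, the deubiquitinase gene USP36 by 0.47 ± 0.05 and NPLOC4, a cofactor of the segregase VCP, by 0.26 ± 0.04. P4HB, the protein disulfide isomerase of the endoplasmic reticulum, read 12.79, 12.83 and 12.86 in parents against 12.58, 12.63 and 12.66 in colonies (-0.20 ± 0.05). Its other probe set differed by -0.29. The paired probe sets of ARHGDIA (0.14 and 0.14) and ALYREF (-0.16 and -0.17) were close to each other too. UBE2O, a large ubiquitin-conjugating enzyme gene, had overlapping groups (-0.04 ± 0.05).

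In metabolism all 5 differences were above 0 (median 0.67). CYGB, the haem protein cytoglobin, read 11.05, 11.11 and 11.11 in parents and 11.84, 11.73 and 11.80 in colonies (0.70 ± 0.05). PRPSAP1, which associates with the enzymes that make phosphoribosyl pyrophosphate, was higher by 0.67 ± 0.05, whereas the nucleotidase gene NT5C was at 0.07 ± 0.05. Of 6 membrane and adhesion genes 3 had differences above 0 and 3 below. Of the remaining 6 genes 5 lay above 0, among them WBP2, RECQL5, the forkhead factor gene FOXK2 (0.46 ± 0.05) and ARMC7 (0.16 ± 0.04). NARF lay below 0 (-0.13 ± 0.05). CDR2L (0.26 ± 0.11) read 6.85 on colony replicate 1, within the parent range, and 7.27 and 7.19 on the others. Without colony replicate 1 its difference was 0.39.

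**Figure D3:**
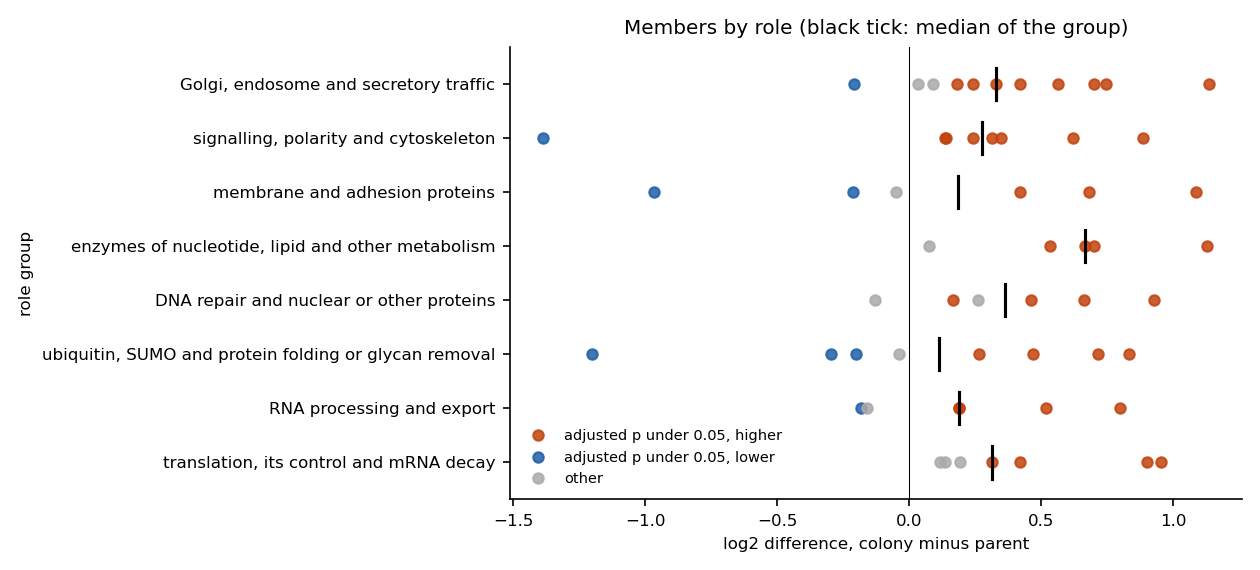
Log2 differences (colony minus parent) of the 57 measured members by role group, 1 point per gene, coloured by the limma call, with a black tick at each group's median. Metabolic enzymes have the highest median (0.67) and ubiquitin, SUMO and folding genes the lowest (0.11).

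The list does not hold every gene of its own stretch. Another 122 measured genes lie between COG1 and FOXK2 in the RefSeq gene order. Their median was 0.20, with 62 called higher and 4 lower. Of these, 63 lay above the median expression, and there the median was 0.44, with 47 called higher and 3 lower, beside a median of 0.32 for the 52 members above it. The 59 below the median expression had a median of 0.00. The highest were TIMP2, an inhibitor of matrix metalloproteinases, at 9.92, 9.87 and 9.83 in parents and 11.29, 11.28 and 11.32 in colonies (1.43 ± 0.04), UBALD2 (1.41 ± 0.05) and SGSH, a lysosomal sulfatase that degrades heparan sulfate (1.41 ± 0.06). The lowest was ST6GALNAC2, a sialyltransferase, at 8.17 on every parent array and 5.42, 6.05 and 5.35 in colonies (-2.56 ± 0.17). Its 3 parent values were identical (SD 0), for a reason that was not tested, so this difference needs caution. The gene lay below the median expression and had 2 probe sets, of which only the one with the higher mean is given. Next lowest were C1QTNF1 (-0.49 ± 0.06) and the fatty acid synthase gene FASN (-0.29 ± 0.05). Thus 10 unlisted genes were higher by at least 2-fold, beside 3 listed ones.

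At the edges of the list the values changed from gene to gene. COG1, the first member, was at 0.74. The 3 nearest measured genes before it were SSTR2 (0.03 ± 0.07), SLC39A11 (-0.50 ± 0.08) and SOX9 (0.06 ± 0.07). Both means of SSTR2 (5.98 in parents, 6.01 in colonies) lay below the lowest array median, and its 3 colony values were identical. SOX9 lay below the median expression too. Whether SSTR2 and SOX9 were above background was not tested, so their values near 0 mark no edge. FOXK2, the last, was at 0.46, and after it came WDR45B (-0.31 ± 0.04), RAB40B (0.06 ± 0.05) and FN3KRP (-0.13 ± 0.05). The 8 measured genes beyond FOXK2 had a median of 0.01.

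Farther out, the higher values were not limited to the band. Among genes above the median expression, the 100 nearest to COG1 on the side of the centromere had a median of 0.52, with 80 called higher and 7 lower, which is above the members' own 0.32. In consecutive blocks of 50 such genes from the short arm onwards, the 6 blocks up to IFI35 had medians from -0.02 to 0.17. The 5 from VAT1 to CEP131 had medians from 0.41 to 0.53, and the last block, of 46 genes from TEPSIN, had 0.23. All 114 windows of 15 genes centred in the interval had a running median above 0, from 0.06 to 0.83. The 888 genes of chromosome 17 outside the interval, dim ones included, had a median of 0.08. The 481 of them above the median expression had a median of 0.21. By chromosome, and again above the median expression, chromosome 17 ranked 2 of 23 with a median of 0.25, behind chromosome 21 with 0.34, and chromosome 4 was lowest with -0.28.

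**Figure D4:**
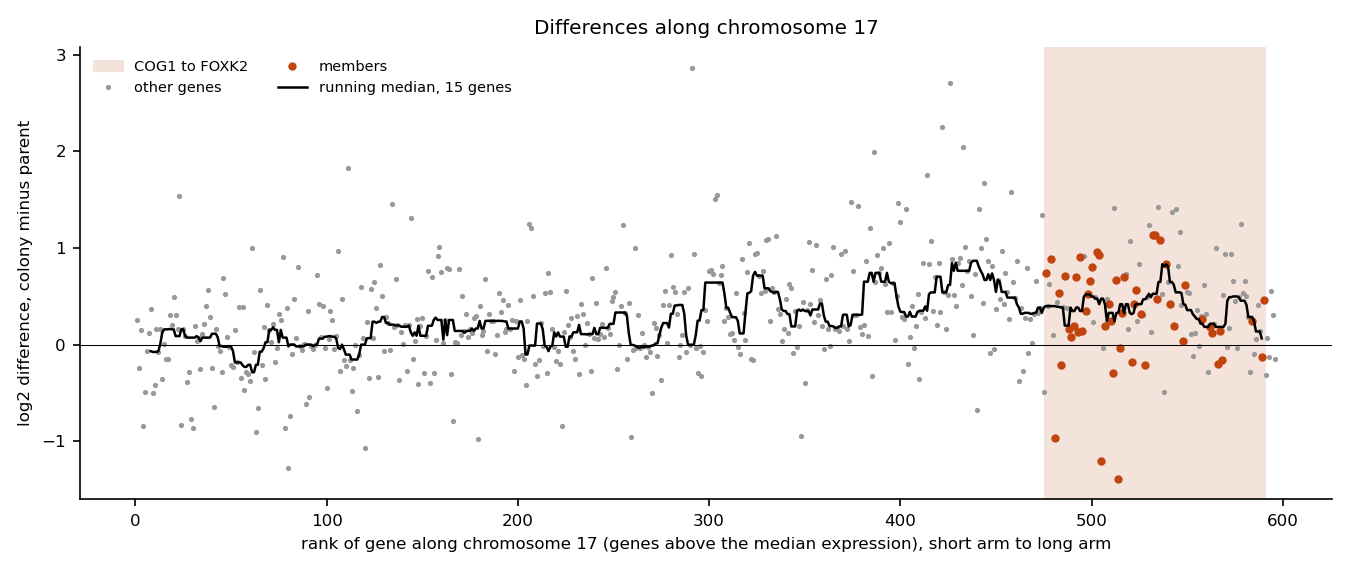
Log2 difference (colony minus parent) of each gene above the median expression against its rank along chromosome 17, with members in orange, other genes in grey, the stretch from COG1 to FOXK2 shaded and the running median of 15 genes as a black line. The line is above 0 throughout the shaded stretch (0.06 to 0.83) and is also above 0 over much of the long arm before it.

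Partners of the members in known complexes, encoded outside the interval, were listed by complex, with earlier results of these data known, and were tested by limma. Of 67 listed partners in 12 complexes or groups 58 were measured. Together 18 rose (31.0%) and 21 fell (36.2%), with a median of 0.03. The background shares of genes above the median expression were near these, at 31.2% called higher and 36.8% called lower. The complexes are sorted below by side of 0 as a description. Counts within a complex are small, and nothing about a complex is read from them. The members themselves are set beside their partners without a test.

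In Golgi tethering the partners lay on the same side of 0 as the member. All 6 measured partners of COG1 rose by limma, from COG7 (0.28 ± 0.05, adjusted p = 0.00235) to COG6 (1.04 ± 0.06, adjusted p = 8.8e-06), and none of the 6 calls ended in any alternative run. In the exocyst EXOC2 (0.49 ± 0.05, adjusted p = 0.000138), EXOC3 and EXOC4 rose while EXOC5 fell (-0.77 ± 0.07, adjusted p = 7.9e-05), beside 0.24 for EXOC7. Of the 2 measured partners of TSEN54, TSEN34 rose (0.17 ± 0.05, adjusted p = 0.0244) and TSEN15 did not pass the test (0.19 ± 0.08, adjusted p = 0.112). The TSEN34 call ended without any single colony array (limma, adjusted p from 0.0511 to 0.0719).

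Other partners lay on the opposite side of 0 from the member. In the signal recognition particle 4 of 5 partners of SRP68 fell, from SRP9 (-0.15 ± 0.05, adjusted p = 0.0452) to SRP72 (-0.63 ± 0.06, adjusted p = 0.00013), and SRP14 did not pass (-0.12). The SRP9 call ended without colony replicate 1 (limma, adjusted p = 0.14), colony replicate 2 (0.127), parent replicate 1 (0.086) or parent replicate 2 (0.108), and after quantile normalization (0.591). That of SRP19 ended without colony replicate 1 (limma, adjusted p = 0.09), colony replicate 3 (0.086), parent replicate 2 (0.0971) or parent replicate 3 (0.0911). Both partners of NPLOC4 fell, UFD1 by 0.92 (adjusted p = 6.4e-06) and VCP by 0.52 (adjusted p = 7.2e-05). Of the 7 measured partners of NUP85 in the scaffold of the nuclear pore 4 fell, the lowest being SEH1L (-0.73 ± 0.05, adjusted p = 1.2e-05), and NUP133 rose (0.57 ± 0.08, adjusted p = 0.000728). Around EIF4A3, RBM8A (-0.94 ± 0.05, adjusted p = 5.9e-06) and MAGOHB fell and CASC3, itself on chromosome 17, rose (0.43 ± 0.04, adjusted p = 0.000119). The other measured partners on chromosome 17, SNF8 (0.14), VPS25 (-0.03) and PRPSAP2 (-0.15), did not pass the test.

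The remaining groups were mixed. Among 5 partners of ALYREF 3 fell, led by THOC7 (-2.42 ± 0.05, adjusted p = 1.3e-07), and THOC6 rose (0.18 ± 0.05, adjusted p = 0.0263), a call that ended without colony replicate 1 (limma, adjusted p = 0.0875) or colony replicate 3 (0.0705). Of 11 ESCRT partners of HGS and CHMP6, 3 rose, with CHMP2A highest (0.94 ± 0.05, adjusted p = 6.0e-06), and 3 fell, with VPS4A lowest (-0.50 ± 0.05, adjusted p = 9.7e-05). The call of CHMP4B (-0.12), one of those 3, ended without any single array other than parent replicates 1 and 3 (limma, adjusted p from 0.0793 to 0.109). Among 4 partners of GRB2, GAB1 (0.84 ± 0.06, adjusted p = 2.4e-05) and the RAS activator gene SOS1 (0.19 ± 0.04, adjusted p = 0.0106) rose and SHC1 fell (-0.26 ± 0.05, adjusted p = 0.00232). PRPS1, of the enzyme that PRPSAP1 associates with, fell (-0.51 ± 0.07, adjusted p = 0.000546). SUMO3 and SAE1, the 2 measured genes of SUMO conjugation, did not pass the test (0.04 and 0.06).

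**Figure D5:**
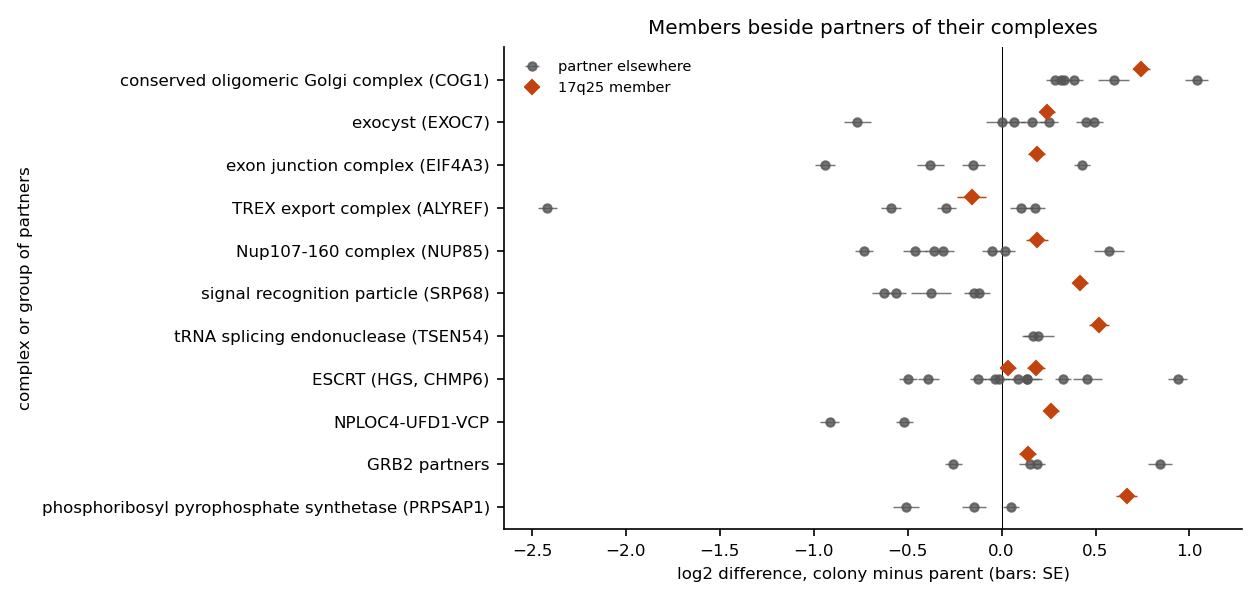
Log2 difference (colony minus parent) with its SE for measured partner genes (grey circles) and for the 17q25 member of the same complex (orange diamonds), 1 line per complex or group. SUMO conjugation, whose member SUMO2 was not analysed, is not drawn. COG1 (0.74) stands among partners that all rose. SRP68 (0.42), NPLOC4 (0.26), TSEN54 (0.52) and PRPSAP1 (0.67) stand to the right of all their partners.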

How the data were processed

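RNA of 6 samples was extracted with a Qiagen kit and hybridised, per the labels' protocols, to Affymetrix arrays that probe whole transcripts. The deposited values are log2 expression per probe set, a scale read from their range. Expression Console, from Affymetrix, is the tool named by the submitters' processing notes. For its version, background correction, summarisation and normalization the sources used here give nothing. Arrays have no read depth, and 3 arrays per group limit the precision.

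Of 33297 probe sets, 19460 had 1 platform symbol, 1754 several and 12083 none. Only those with 1 were used, the one with the highest mean standing for a gene, which gave 18417 genes with no filter. RefSeq (GRCh38.p14) served for names, gene order and promoter windows. TMEM104 was matched through its synonym.

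Groups came from the titles. Colony minus parent was fitted by limma 3.58.1 in R 4.3.3 (lmFit and eBayes, 2-sided, Benjamini-Hochberg over all genes, threshold 0.05), with SE from that fit, and tested on simulated data. The members, role groups and partner list were chosen with earlier results of these data known. Named genes were all members by role, with array values for the 6 highest, the 6 lowest, a fixed set of 12 (GRB2, P4HB, SRSF2, MFSD11, TBC1D16, LGALS3BP, EIF4A3, SUMO2, SPHK1, ALYREF, ARHGDIA and HGS), dim members and the median member. To these were added the 3 genes on each side, the 3 highest and lowest unlisted genes, and the extreme called partners of each complex. Other array values and partners were chosen after their values were seen, as were the 50-gene blocks and the 100 genes before COG1. Alternatives were other scalings, a filter on dim genes, the mean of probe sets, another variance model, the replicate number as a term and each array left out.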

Additional observations from a re-analysis of the deposited data

How the results depend on the processing

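No member changed sign while called under any alternative. Shifting arrays to a common median moved the members' median difference to 0.29 and that of the rest of chromosome 17 to 0.054. With only genes above the median expression, the unlisted genes of the interval had a median of 0.44 and the rest of chromosome 17 one of 0.21, over fewer genes. Leaving out 1 array gave 0.29 to 0.32 for the members, 0.16 to 0.22 for the unlisted genes and 0.056 to 0.098 for the rest of chromosome 17. Over all alternatives 35 to 40 members were called higher and 6 to 9 lower. In 7 members the call ended in at least 1 alternative and in 5 others (CDR2L, MRPL12, MRPL38, MRPS7 and NARF) one appeared. GRB2 and ARHGDIA lost theirs with a common median and with the replicate number as a block, and SRSF2 and SYNGR2 with quantile normalization. The cause was not tested. With the replicate block 7564 genes were called in place of 8061, with 36 members higher and 8 lower, and the calls of ARMC7 and of the partners TSEN34, THOC6, SRP9 and CHMP4B ended (partners by limma, adjusted p from 0.0527 to 0.119). Same-numbered arrays did not deviate together (correlations of -0.09, -0.06 and -0.01), so the numbers were not taken to pair the samples. The number of arrays and the dimness of 4 members limit these values.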

Other observations

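On the side of the centromere, ABCA9 and MAP2K6 of band 17q24 were among the genes with differences larger in size, whatever the sign, than any 17q25 member. Neighbouring ABC transporter genes were also higher, and ABCA5 exceeded the highest member, CYTH1. The values of these 5 genes led to their choice. Means of ABCA6 and ABCA10 in both groups, and of ABCA9 and MAP2K6 in parents, lay below the lowest array median of 6.98. Whether these were above background was not tested. The ABC transporter gene ABCA9 differed by 3.34 ± 0.08 (SE, n = 3 per group), ABCA5 by 1.34 ± 0.07, ABCA6 by 0.85 ± 0.07 and ABCA10 by 0.78 ± 0.07, and MAP2K6, a kinase that activates p38, by 1.85 ± 0.08.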
